A study of Homo sapiens with 6 samples.

Results

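The 10 genes described here belong to the Wnt pathway: the ligands WNT7A and WNT7B, the R-spondin receptors LGR4 and LGR5, the membrane and secreted inhibitors RNF43, ZNRF3 and DKK1, the cytoplasmic feedback proteins AXIN2 and NKD1, and the transcription factor TCF7L2. They were taken by gene symbol from a table of 60504 genes; each symbol matched 1 protein-coding row. RNA was measured by poly(A) RNA-seq in HCC827, a human lung adenocarcinoma line with mutant EGFR. The 3D group (3 libraries) consisted of tumoroids, made by moving monolayer cells into Matrigel low in growth factors (a gel of basement membrane proteins), with 50000 cells a droplet and 12 to 16 days of growth; tumoroids were passaged with Dispase and a Rock inhibitor. The 2D group (3 libraries) was the monolayer itself, with 1000000 cells put into an uncoated flask and 4 to 6 days of growth between passages. Both groups received the same RPMI medium with serum and antibiotics. Time, seeding density and gel contact differ together with geometry and cannot be told apart. The same holds for the passaging with Dispase and a Rock inhibitor, which is described for 3D only. All 6 libraries come from 1 cell line.

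Wnt ligands are secreted lipid-modified proteins that bind Frizzled receptors and the co-receptors LRP5 and LRP6. In the canonical branch this stops a cytoplasmic complex of APC, AXIN and the kinases GSK3 and CK1 from destroying beta-catenin, which then enters the nucleus and switches on genes together with TCF/LEF factors. Several of those targets, among them AXIN2, NKD1, RNF43, ZNRF3, LGR5 and DKK1, act back on the pathway, and in the lung WNT7B is known as a ligand made by the developing airway epithelium.

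All values are TPM, a share of each library's transcripts corrected for gene length, so levels can be compared between genes, but depth is unknown. Separate cultures are not stated for the 3 libraries of either group, and the p-values therefore reflect the spread among these libraries alone, which may be technical. Genes averaging 1 TPM or more across all 6 libraries were tested, on log2(TPM + 1) with limma, and a fold change on this scale understates that of genes with low TPM. Of 15042 such genes, 1536 were called higher in 3D (10.2%) and 319 lower (2.12%) at a Benjamini-Hochberg adjusted p under 0.05. Rescaling the libraries by median ratios gave 933 higher and 662 lower, and quantile normalization 869 and 576. The median gene lay at a log2 fold change of 0.12 as deposited and at -0.03 after median-ratio scaling. The sum of 6 epithelial markers was 4464 to 8263 TPM in 3D and 7223 to 9624 TPM in 2D. Of these, the keratins KRT7 (525 to 869 TPM in 3D and 1165 to 1222 TPM in 2D) and KRT18 (813 to 1515 TPM in 3D and 1614 to 1977 TPM in 2D) were lower in 3D without overlap, while the other 4 overlapped, with EPCAM at 567 to 589 TPM in 3D and 573 to 631 TPM in 2D. NKX2-1, the lung lineage factor, was at 58.9 to 79.9 TPM in 3D and 58.9 to 65.9 TPM in 2D. The other lung lineage markers went opposite ways. SFTPB was higher in 3D without overlap (1.49 to 9.71 TPM, against 0.41 to 0.92 TPM in 2D). FOXA2 was at 1.21 to 1.61 TPM in 3D and 1.61 to 2.62 TPM in 2D, the ranges meeting at 1.61 TPM. The summed level of 7 fibroblast markers was 6.99 to 12.2 TPM in 3D and 2.10 to 2.96 TPM in 2D, most of it COL1A1, while COL3A1 was listed at 0 in every library and COL1A2 reached at most 0.01 TPM in 3D and was listed at 0 in 2D. The sum of 6 leukocyte markers, most of it CD68, was 48.5 to 90.1 TPM in 3D and 70.7 to 98.7 TPM in 2D, with PTPRC at 0.03 to 0.25 TPM in 3D and at 0 in 2D. The sum of 4 endothelial markers was 1.51 to 3.98 TPM in 3D and 0.68 to 1.46 TPM in 2D, and that of 3 smooth muscle markers 0.07 to 0.64 TPM in 3D and 0.01 to 0.14 TPM in 2D. The part of these markers in the results on Wnt genes was not tested.

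WNT7B was the main Wnt ligand of these cells and the only one of the 10 genes to pass the test, being lower in 3D. LGR4 was the most abundant of the 10 and differed little between cultures. RNF43 lay higher in each 3D library than in any 2D library but missed the threshold. AXIN2, NKD1 and LGR5, which are often read as targets of beta-catenin, were at or near 0 in both cultures. In all, 6 of the 10 genes reached the level for testing, and 1 of these 6 was called, in the lower direction, against 12.3% of all tested genes called either way and 2.12% called lower. The 3D and 2D libraries did not overlap for 2 of the 6 (WNT7B and RNF43), against 36.7% of all tested genes; RNF43 was the 1 gene with 3D above, against 27.3% of all tested genes, and WNT7B the 1 with 3D below, against 9.4%. These shares of 6 genes are not read as a result about the group.

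**Figure D1:**
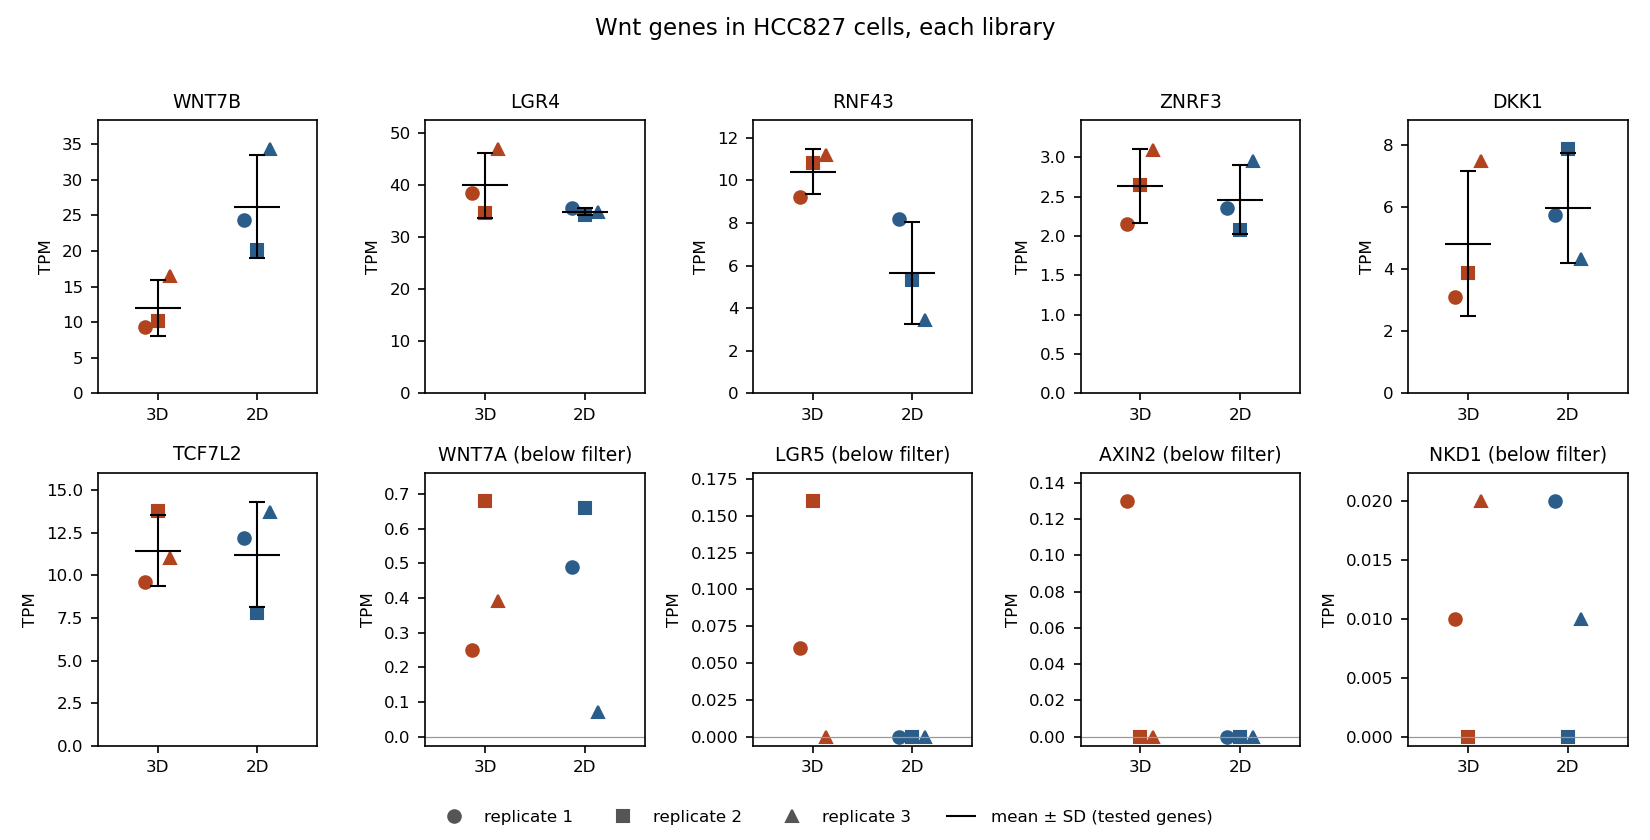
TPM of the 10 Wnt genes in each library, 3D left and 2D right in each panel, with the mean and SD (n = 3) for the 6 tested genes; the axes differ between panels. WNT7B lies between 9.34 and 16.5 TPM in 3D and between 20.1 and 34.3 TPM in 2D, while WNT7A, LGR5, AXIN2 and NKD1, drawn without mean and SD, reach at most 0.68 TPM.

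The ligands come first. WNT7B lies on the minus strand at chr22:45920362-45977129 (GRCh38, GENCODE 29). It had 9.34, 10.2 and 16.5 TPM in the 3D libraries, against 24.3, 20.1 and 34.3 TPM in the 2D libraries. Every 3D library lay below every 2D library, and in each culture replicate 3 was the highest. WNT7B averaged 12.0 ± 3.90 TPM in 3D and 26.2 ± 7.27 TPM in 2D (SD, n = 3 each), a log2 fold change of -1.08 with a 95% interval of -1.68 to -0.47 (limma, SE 0.26, adjusted p = 0.0376). The call did not hold when either of 3D replicates 1 and 2 or any 1 of the 2D libraries was omitted, with limma adjusted p between 0.0580 and 0.135, nor with no filter on low TPM (adjusted p = 0.10); the direction was the same throughout, with log2 fold changes of -1.31 to -0.87 over all alternatives. In bulk RNA, fewer cells making WNT7B and less WNT7B RNA per cell cannot be told apart.

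WNT7A, the closest relative of WNT7B, lies on the minus strand at chr3:13816258-13880121 and was barely detected. It had 0.25, 0.68 and 0.39 TPM in the 3D libraries, against 0.49, 0.66 and 0.07 TPM in the 2D libraries, so the cultures overlapped and the gene stayed below the level for testing. No stretch of 75 bases, the read length, was shared between the longest coding transcript of WNT7A or of WNT7B and a transcript of another gene in the table, the other paralog included.

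The remaining WNT genes were low. Over all 19 WNT ligand genes the summed level was 18.2, 18.8 and 23.8 TPM in the 3D libraries, against 30.5, 26.9 and 39.9 TPM in the 2D libraries. WNT7B made up 51.3%, 54.0% and 69.2% of that sum in 3D and 79.9%, 74.7% and 85.8% in 2D. The other 18 genes together had 7.33 to 8.88 TPM in 3D and 5.66 to 6.79 TPM in 2D, so the sum without WNT7B was higher in each 3D library than in any 2D library. These sums are given as values and were not tested. WNT3, a canonical ligand, followed WNT7B with 2.34 ± 0.619 TPM in 3D and 1.99 ± 0.117 TPM in 2D (SD, n = 3 each).

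WNT5A, the classical ligand of the branch that does not use beta-catenin, stood out among the low genes and is named here after its values were seen. It had 1.32, 0.89 and 0.80 TPM in the 3D libraries, against 0.04, 0.01 and 0.04 TPM in the 2D libraries. Its mean over the 6 libraries was below 1 TPM, so it was tested only in the fit without a filter, where its log2 fold change was 0.95 (SE 0.13, limma adjusted p = 0.0289).

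**Figure D2:**
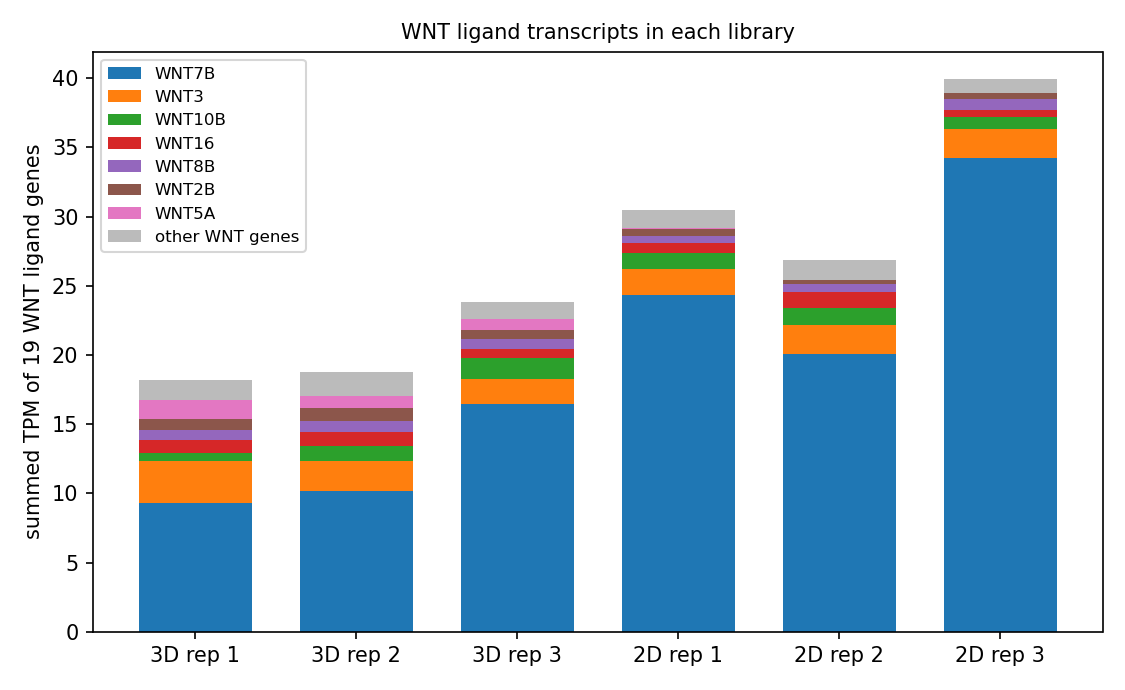
Summed TPM of the 19 WNT ligand genes in each library, stacked by gene, 3D libraries left and 2D libraries right. WNT7B is the largest part of every bar, at 51.3% to 69.2% in 3D and 74.7% to 85.8% in 2D.

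Ligand export showed no called change. WLS, the carrier that takes Wnt proteins to the cell surface, had 49.8 ± 2.77 TPM in 3D and 58.3 ± 9.40 TPM in 2D (SD, n = 3 each; log2 fold change -0.21, limma adjusted p = 0.357). PORCN, the enzyme that adds the lipid, had 5.85 ± 1.07 TPM in 3D and 7.18 ± 2.07 TPM in 2D (log2 fold change -0.23, limma adjusted p = 0.528). None of the 4 tested genes of the ligand and export group, which also held WNT3 and WNT10B, passed the test; with 12.3% of all tested genes called, 0 of 4 is not read as a result.

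Among the receptors, LGR4 binds R-spondins, secreted proteins that keep Frizzled on the cell surface. The gene lies on the minus strand at chr11:27365961-27472775. LGR4 had 38.5, 34.7 and 46.9 TPM in the 3D libraries, against 35.6, 34.3 and 34.8 TPM in the 2D libraries. The 2D values were nearly identical, with an SD of 1.88% of their mean, and 3D replicate 2 fell among them. The log2 fold change was 0.18 with a 95% interval of -0.15 to 0.51 (limma, adjusted p = 0.415), so changes within that range cannot be told from none. It was 0.065 without 3D replicate 3, 0.28 without 3D replicate 2 and 0.0069 under median-ratio scaling.

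LGR5, its relative and a stem cell marker of the intestine, lies on the plus strand at chr12:71439770-71586310. It was listed at 0.06, 0.16 and 0 TPM in the 3D libraries and at 0 in all 3 2D libraries, and was not tested. Its start overlaps TSPAN8 on the opposite strand, a gene at 97.3 to 186 TPM in 3D and 105 to 194 TPM in 2D. The longest coding transcript of LGR5 shared no stretch of 75 bases with a TSPAN8 transcript on either strand. It shared 212 bases with an antisense gene listed at 0 in every library. The strand setting of the counting is not given in the sources used here. The 4 R-spondin genes RSPO1 to RSPO4 all stayed below the level for testing.

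The wider receptor group, listed from textbook roles, held 20 genes, of which 10 were tested, 1 was called lower and none higher (10%, near the 12.3% of all tested genes called either way). The called gene was FZD2, a Frizzled receptor. FZD2 had 4.36, 4.47 and 5.32 TPM in the 3D libraries, against 10.1, 7.24 and 11.5 TPM in the 2D libraries. All 3D values lay below all 2D values (log2 fold change -0.87, SE 0.19, limma adjusted p = 0.0289). With no filter, or when 3D replicate 1, 3D replicate 2 or 2D replicate 1 was omitted, FZD2 did not pass (limma adjusted p up to 0.109).

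The co-receptors did not pass. LRP5, which like LRP6 forms the receptor complex with Frizzled, had 46.1, 54.8 and 53.5 TPM in the 3D libraries, against 106.9, 65.9 and 49.7 TPM in the 2D libraries, with overlap (log2 fold change -0.45, limma adjusted p = 0.275). Its value was -0.16 without 2D replicate 1, the highest library, and -0.70 without 2D replicate 3. LRP6, named after its values were seen, had 11.7, 11.0 and 9.02 TPM in the 3D libraries, against 5.97, 6.32 and 8.16 TPM in the 2D libraries, without overlap (log2 fold change 0.57, limma adjusted p = 0.0686). RYK, a Wnt-binding receptor of the tyrosine kinase type, had 42.4 ± 3.56 TPM in 3D and 34.0 ± 3.03 TPM in 2D (log2 fold change 0.31, limma adjusted p = 0.156).

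Of the inhibitors at the membrane, RNF43 is a ubiquitin ligase that marks Frizzled for removal. The gene lies on the minus strand at chr17:58352500-58417595. RNF43 had 9.22, 10.8 and 11.2 TPM in the 3D libraries, against 8.18, 5.34 and 3.45 TPM in the 2D libraries. The cultures did not overlap, but the 2D libraries spread widely, from 3.45 in replicate 3 to 8.18 in replicate 1. RNF43 averaged 10.4 ± 1.05 TPM in 3D and 5.66 ± 2.38 TPM in 2D (SD, n = 3 each), a log2 fold change of 0.84 with a 95% interval of 0.23 to 1.44 (limma, unadjusted p = 0.0134, adjusted p = 0.0758). Without 2D replicate 1 it passed, with a log2 fold change of 1.10 (limma adjusted p = 0.0413). On the same strand, the end of RNF43 (chr17:58352500-58353093) overlaps SUPT4H1, at 97.6 to 120.6 TPM in 3D and 101 to 110 TPM in 2D. The longest coding transcript of RNF43 shared no stretch of 75 bases with a SUPT4H1 transcript. AC004687.2 spans the whole gene but is not among the 60504 genes listed, and was not searched. As the annotation release is not given, the assignment of reads to RNF43 remains uncertain. Of its longest coding transcript 5.45% overlaps an antisense gene listed at up to 0.38 TPM in 3D and up to 0.41 TPM in 2D.

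ZNRF3, the paralog of RNF43 with the same activity, lies on the plus strand at chr22:28883592-29057487. It had 2.15, 2.65 and 3.09 TPM in the 3D libraries, against 2.36, 2.08 and 2.95 TPM in the 2D libraries, with full overlap. The log2 fold change was 0.067 with a 95% interval of -0.40 to 0.53 (limma, adjusted p = 0.841), and it changed sign under median-ratio scaling (-0.061) and quantile normalization (-0.16). RNF43 stood 4.29, 4.08 and 3.62 times as high as ZNRF3 in the 3D libraries, against 3.47, 2.57 and 1.17 times in the 2D libraries.

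DKK1 is a secreted protein that binds LRP5 and LRP6 and blocks the receptor complex. The gene lies on the plus strand at chr10:52314296-52318042. DKK1 had 3.09, 3.88 and 7.49 TPM in the 3D libraries, against 5.75, 7.85 and 4.32 TPM in the 2D libraries. Replicate 3 was the highest 3D library and the lowest 2D library, and the cultures overlapped. The log2 fold change was -0.30 with a 95% interval of -1.02 to 0.42 (limma, adjusted p = 0.536). The value turned on single libraries: it was -0.084 without 3D replicate 1, -0.11 without 2D replicate 2, -0.61 without 3D replicate 3 and -0.48 without 2D replicate 3, none of which passed. With both libraries numbered 3 left out it was -0.79 and passed the test (limma adjusted p = 0.0423). An antisense gene listed at up to 0.17 TPM in 3D and up to 0.26 TPM in 2D overlaps 11.8% of its longest coding transcript.

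The DKK1 promoter is shown because DKK1 is a known target of TCF factors. It was also the 1 gene with a match to their core motif among the 5 whose promoters could be searched. Promoters were given for 5 of the 10 genes (WNT7A, LGR4, RNF43, DKK1 and TCF7L2; RefSeq, GRCh38.p14), and the letters CTTTGAA and CTTTGAT were searched on both strands in the 250 bases before each start. Of 35114 promoters, 5.94% held a match, against 1 of the 8 promoters of these 5 genes, too few to be read as a result. The stretch below, chr10:52314031-52314280 on the plus strand, reads 5′ to 3′ with the match in capitals, its first base 95 bases before the start:
DKK1: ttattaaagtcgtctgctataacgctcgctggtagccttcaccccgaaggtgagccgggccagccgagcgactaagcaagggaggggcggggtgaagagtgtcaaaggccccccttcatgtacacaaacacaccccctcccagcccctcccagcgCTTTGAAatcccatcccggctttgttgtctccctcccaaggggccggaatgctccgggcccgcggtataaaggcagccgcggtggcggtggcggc
A match is a run of letters and not a binding site, and DKK1 itself did not pass the test.

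The wider group of secreted or membrane inhibitors held 18 genes, 4 of them tested, and none passed, against 12.3% of all tested genes called. TPBG, a membrane glycoprotein known to restrain Wnt signalling, had 43.6 ± 11.1 TPM in 3D and 27.5 ± 4.44 TPM in 2D (SD, n = 3 each; log2 fold change 0.63, limma adjusted p = 0.0895), without overlap, and passed when 3D replicate 3 was omitted (limma adjusted p = 0.0403). DKK3, a divergent relative of DKK1, had 9.23 ± 0.786 TPM in 3D and 8.97 ± 1.25 TPM in 2D (log2 fold change 0.041, limma adjusted p = 0.875).

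The cytoplasmic feedback genes were nearly silent. AXIN2, a scaffold of the complex that destroys beta-catenin and a widely used readout of canonical signalling, lies on the minus strand at chr17:65528563-65561647. It was listed at 0.13, 0 and 0 TPM in the 3D libraries and at 0 in all 3 2D libraries. NKD1, which binds Dishevelled, lies on the plus strand at chr16:50548330-50649249 and was listed at 0.01, 0 and 0.02 TPM in the 3D libraries and at 0.02, 0 and 0.01 TPM in the 2D libraries. Of the longest AXIN2 coding transcript, 31.0% is shared with an overlapping gene on the same strand, which was itself listed at no more than 0.1 TPM in 3D and at 0 in 2D.

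NKD2, the paralog of NKD1, was detected and rose in 3D. It had 3.18, 5.01 and 2.67 TPM in the 3D libraries, against 1.09, 0.64 and 0.76 TPM in the 2D libraries, with no overlap (log2 fold change 1.31, SE 0.25, limma adjusted p = 0.0184). Its 2D mean was 0.83 TPM, so it reached the level for testing only through the 3D libraries, where it was higher. NKD2 did not pass with no filter, nor when 3D replicate 1, 3D replicate 2 or 2D replicate 2 was omitted (limma adjusted p up to 0.0754).

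Of the 18 other genes of the cytoplasmic chain, NKD2 among them, 17 were tested, 4 rose, none fell and 13 did not pass. That is 23.5% called, all higher, against 10.2% of all tested genes called higher, with a median log2 fold change of 0.49 against 0.12 over all tested genes. Because the list was chosen with earlier results of these data known, the share is not read as a result about the group. NKD2, which reached the level for testing only through the 3D libraries, is counted in both the share and the median. Beside NKD2, the genes that rose were APC, CSNK1A1 and TNKS2. CSNK1A1, the kinase that primes beta-catenin for destruction, had 206, 209 and 201 TPM in the 3D libraries, against 139, 132 and 157 TPM in the 2D libraries (log2 fold change 0.52, limma adjusted p = 0.0328).

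APC, the scaffold tumour suppressor of the same complex, had 6.22, 6.30 and 5.74 TPM in the 3D libraries, against 3.76, 3.50 and 3.83 TPM in the 2D libraries (log2 fold change 0.59, limma adjusted p = 0.0402). TNKS2, a tankyrase that marks AXIN for removal, had 22.1 ± 2.97 TPM in 3D and 14.2 ± 0.335 TPM in 2D (SD, n = 3 each; log2 fold change 0.59, limma adjusted p = 0.0355). The calls of APC, CSNK1A1 and TNKS2 were lost under median-ratio scaling, under 4 to 6 of the 6 single-library omissions and with no filter, with limma adjusted p up to 0.147, 0.127 and 0.132. Quantile normalization also ended the calls of APC and TNKS2 (limma adjusted p = 0.127 and 0.0903), eBayes without a trend that of CSNK1A1 (0.0512), and the replicate block all of these (0.0729, 0.0546 and 0.0600 for APC, TNKS2 and CSNK1A1). CTNNB1, which encodes beta-catenin, was the most abundant gene of this group at 258, 206 and 263 TPM in the 3D libraries, against 187, 155 and 149 TPM in the 2D libraries; the cultures did not overlap, but the gene missed the threshold (log2 fold change 0.56, SE 0.15, limma adjusted p = 0.0544). Over its 16 alternatives the limma adjusted p of CTNNB1 ran from 0.0385 to 0.184: it passed after quantile normalization and with the mitochondrial genome left out, and not under the other 14, among them median-ratio scaling (0.38, adjusted p = 0.148).

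In the nucleus, TCF7L2 is the TCF factor that carries beta-catenin to its targets in many epithelia. The gene lies on the plus strand at chr10:112950250-113167678. TCF7L2 had 9.61, 13.8 and 11.0 TPM in the 3D libraries, against 12.2, 7.78 and 13.7 TPM in the 2D libraries. The cultures overlapped fully, with a log2 fold change of 0.048 and a 95% interval of -0.48 to 0.58 (limma, adjusted p = 0.903). Its sign turned under median-ratio scaling (-0.12) and quantile normalization (-0.15). None of 7 tested partners passed, against 12.3% of all tested genes called: TLE1, a co-repressor of TCF factors, had 46.5 ± 6.72 TPM in 3D and 42.6 ± 14.7 TPM in 2D, and CHD8, a chromatin remodeller that binds beta-catenin, had 40.6 ± 4.29 TPM in 3D and 40.5 ± 3.27 TPM in 2D (SD, n = 3 each).

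The levels of the 10 genes kept a similar order in both cultures. In 3D, LGR4 stood above all others without overlap, WNT7B, TCF7L2 and RNF43 followed with overlapping ranges, then DKK1 and ZNRF3, whose ranges met at 3.09 TPM. In 2D, LGR4 and WNT7B came close, at 34.3 to 35.6 and 20.1 to 34.3 TPM, and WNT7B stood clear of TCF7L2. Below it TCF7L2 overlapped DKK1 and DKK1 overlapped RNF43, while ZNRF3 lay below RNF43. WNT7A, LGR5, AXIN2 and NKD1 took the last places in each culture.

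**Figure D3:**
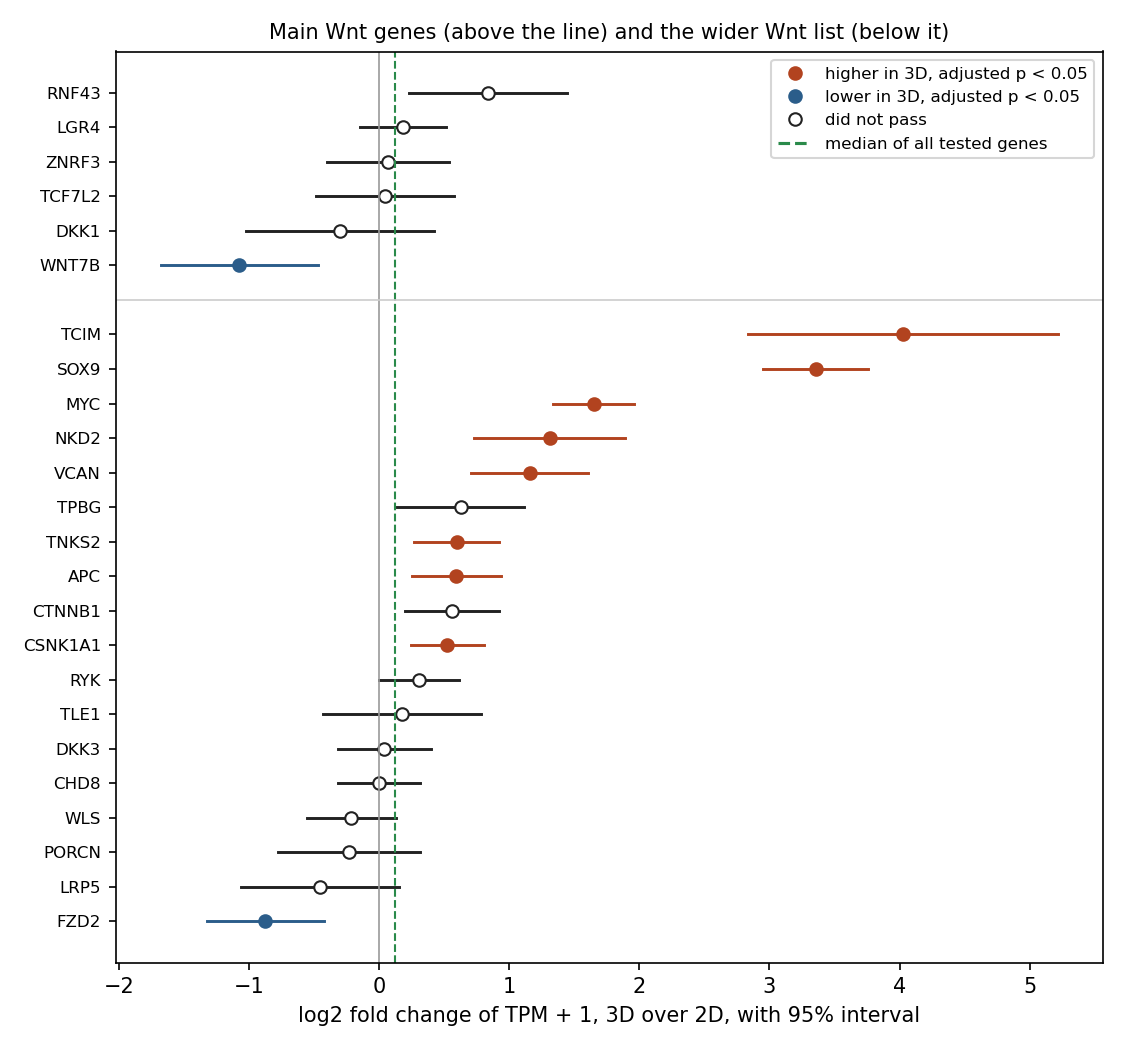
Log2 fold change of TPM + 1 for 3D over 2D with its 95% interval, for the 6 tested main genes above the grey line and for genes of the wider list below it; filled points passed an adjusted p of 0.05. WNT7B (-1.08) and FZD2 (-0.87) are the filled points on the negative side, and TCIM (4.02) and SOX9 (3.35) lie farthest to the positive side.

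Other genes known as Wnt targets in some tissues were described as a group, in which TCIM, described below as a regulator of the pathway, was also listed. Of 16 listed, 10 were tested, 5 rose, none fell and 5 did not pass, with a median log2 fold change of 0.47. That is 50% called, all higher, against 10.2% of all tested genes called higher and 12.3% called either way. The list was chosen with earlier results of these data known, so this share is not read as a result about the group. Of the 5 that did not pass, 4 had negative log2 fold changes: CCND1 (-0.29), EPHB2 (-0.13), EPHB3 (-0.32) and CD44, named after their values were seen. CD44, a hyaluronan receptor, had 124, 133 and 128 TPM in the 3D libraries, against 157, 169 and 219 TPM in the 2D libraries, without overlap (log2 fold change -0.48, limma adjusted p = 0.0780). These genes answer to many other signals, and SP5 and ASCL2, both close to beta-catenin in other tissues, stayed below the level for testing. SOX9, a transcription factor of lung progenitors, had 11.4, 13.01 and 10.4 TPM in the 3D libraries, against 0.21, 0.27 and 0.21 TPM in the 2D libraries (log2 fold change 3.35, SE 0.17, limma adjusted p = 0.000145). In 2D SOX9 averaged 0.23 TPM, so it reached the level for testing only through the 3D libraries, where it was high. The share and median of the group given above include SOX9.

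TCIM, named C8orf4 in the table and known as a positive regulator of the pathway, had 623, 409 and 438 TPM in the 3D libraries, against 56.7, 35.9 and 11.3 TPM in the 2D libraries (log2 fold change 4.02, SE 0.51, limma adjusted p = 0.00502). VCAN, a matrix proteoglycan, had 36.6 ± 2.46 TPM in 3D and 16.2 ± 4.23 TPM in 2D (SD, n = 3 each; log2 fold change 1.16, limma adjusted p = 0.0126), a call that ended when 3D replicate 1, 3D replicate 2 or 2D replicate 2 was omitted (limma adjusted p up to 0.0637). The growth-promoting factor MYC and PPARD, a lipid-sensing nuclear receptor named after its values were seen, were the other genes that rose, with log2 fold changes of 1.65 and 0.82 (limma adjusted p = 0.000811 and 0.0224).

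Over the whole wider list of 103 genes, 52 were tested, 9 rose, 1 fell and 42 did not pass. That is 17.3% higher and 1.92% lower, against 10.2% and 2.12% of all tested genes, with a median log2 fold change of 0.21 against 0.12. As the list was chosen with earlier results of these data known, these shares are not read as a result about it. NKD2 and SOX9, which reached the level for testing only through the 3D libraries, are counted among the 9 that rose. In the list, 3 genes passed as higher when 3D replicate 1, 3D replicate 2 or 2D replicate 2 was omitted, and 4 with no filter. Over all tested genes the higher calls also fell, from 1536 of 15042 to 367 of 15012, 390 of 14915 and 425 of 15097 in these omissions. With no filter they were 729 of 33924.

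**Figure D4:**
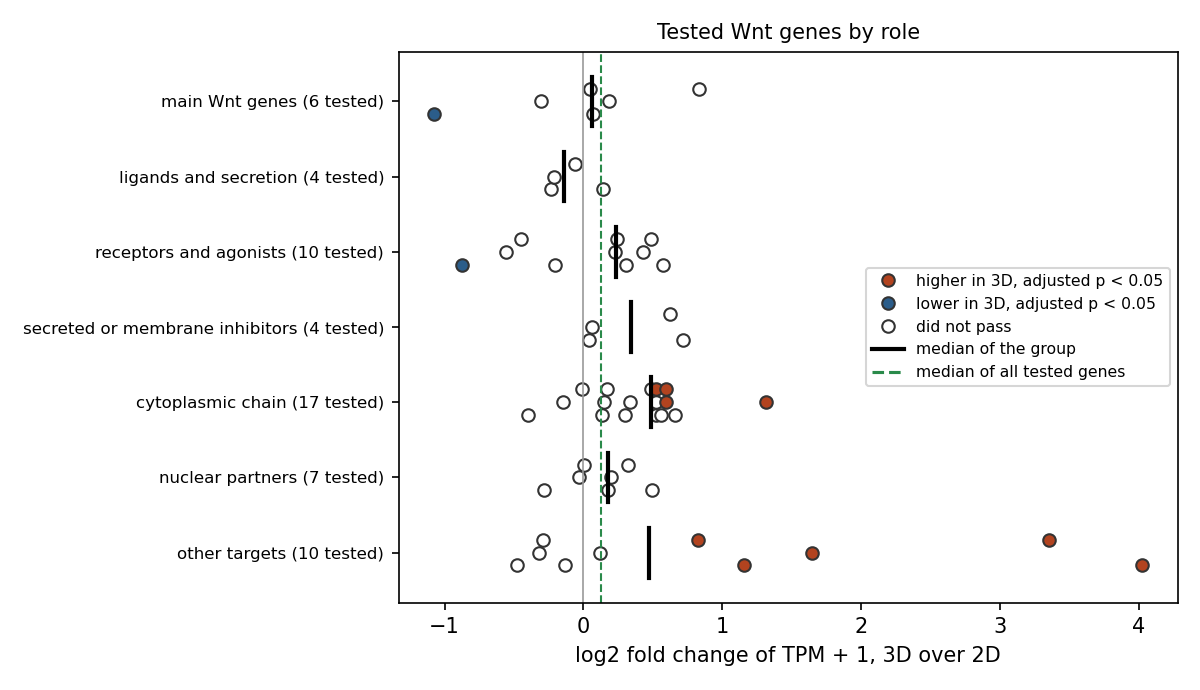
Log2 fold change of TPM + 1 for 3D over 2D of each tested Wnt gene, by role, with the median of each group as a black bar and the median of all tested genes (0.12) as a dashed line. Filled points passed an adjusted p of 0.05. On the negative side these are WNT7B and FZD2. On the positive side they are 4 genes of the cytoplasmic chain and 5 genes listed under other targets, TCIM among them.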

How the data were processed

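Values are TPM per gene as deposited by the authors, 1 column for each of 6 libraries. RSEM 1.3.1, STAR 2.7.0d, cutadapt 2.3 and the build hg38 are named, without role or order, per the submitters' processing notes. The sources used here give no annotation release, strand setting or filter. Groups and replicate numbers came from the sample titles. TPM is a share of each library, so a rise of some genes lowers the rest, and it keeps no depth; no counting interval is given.

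The 15042 genes averaging 1 TPM or more were compared between 3D and 2D with limma 3.58.1 (R 4.3.3, eBayes with a trend, two-sided) after a log2 transform with a pseudocount of 1; p-values were adjusted by Benjamini-Hochberg across them and called under 0.05. The fit was run on simulated data with independent noise for each gene. That simulation held no shifts of whole libraries, so it cannot show how such shifts affect the calls. The wider list was written from textbook roles; all genes were matched by symbol, CCN4 and TCIM under older names. Of each role group, up to 4 called genes and the 2 most abundant were named; other names were chosen after their values were seen, which the text says. The 10 genes and the lists were chosen with earlier results of these data known. Coordinates and transcripts came from GENCODE 29; shared stretches of 75 bases were found with blastn 2.17.0. Alternatives were pseudocounts, filters, scalings, the mitochondrial genome left out, eBayes without a trend, a replicate block and libraries left out. Figures used matplotlib 3.10.9.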

Additional observations from a re-analysis of the deposited data

How the results depend on the processing

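Among the 6 tested main genes, WNT7B kept its direction under all 16 alternatives and lost its call under 6 of them: no filter on low TPM (-1.08, limma adjusted p = 0.10) and 5 single-library omissions, over which and without 3D replicate 3 its log2 fold change ran from -1.31 to -0.87. RNF43 kept its direction, at 0.58 to 1.10 over the single-library omissions, and passed only without 2D replicate 1. DKK1 passed only with both libraries numbered 3 left out (-0.79). ZNRF3 and TCF7L2, which passed under none, changed sign under median-ratio scaling (-0.061 and -0.12) and quantile normalization (-0.16 and -0.15), and over single-library omissions ran from -0.023 to 0.17 and from -0.17 to 0.20. LGR4 kept its direction and passed under none, at 0.065 to 0.28 over single-library omissions and 0.0069 under median-ratio scaling; DKK1 ran from -0.61 to -0.084 over those omissions. The numbers of main genes called ran from 0 to 1 higher and 0 to 1 lower over single-library omissions, with 0 lower under no filter and 2 lower with both libraries numbered 3 left out.

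Of the wider list, 9 genes higher and 1 lower became 4 and 0 with no filter and 14 and 2 with both libraries numbered 3 left out; lower calls were 3 under median-ratio scaling and 2 under quantile normalization. Single-library omissions gave 3 to 10 higher and 0 to 1 lower. Without passing in either case, DKK3 (-0.12, -0.17) and CHD8 (-0.17, -0.088) changed sign under median-ratio scaling and quantile normalization, and over single-library omissions DKK3 ran from -0.024 to 0.14, TLE1 from -0.11 to 0.40 and CHD8 from -0.057 to 0.088. ZNRF3, NKD2 and APC have no value under a filter at a mean of 5 TPM, which they do not reach. Over all tested genes, higher and lower calls were 729 and 86 with no filter, 933 and 662 under median-ratio scaling, 869 and 576 under quantile normalization, 2464 and 1356 with both libraries numbered 3 left out, and 367 to 1607 and 29 to 563 over single-library omissions. Each single-library omission leaves 2 libraries in 1 group; the cause of these shifts was not tested.

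The sample titles state no pairing of the libraries. Deviations of same-numbered libraries from their group means correlated at 0.101, 0.0365 and 0.185 across genes. 3D replicate 1 correlated best with 2D replicate 2 (0.127), while 3D replicates 2 and 3 correlated best with the 2D library of their own number. With 3 libraries in each group, these values cannot decide whether the libraries were paired. With the replicate block, 1479 genes were higher and 395 lower, WNT7B kept its call (-1.08, limma adjusted p = 0.0111), and the calls of APC, CSNK1A1 and TNKS2 were lost. TPM gives no depth, so how firmly the genes near 0 are absent cannot be stated.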

Other observations

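Some Wnt genes below the level for testing also differed without overlap between the cultures; they were picked after their values were seen. LGR6, the third R-spondin receptor of its family, had 0.62, 0.41 and 0.29 TPM in the 3D libraries, against 0, 0.06 and 0 TPM in the 2D libraries. In the fit without a filter it did not pass (limma adjusted p = 0.0601). WNT9A, a canonical ligand, averaged 0.413 TPM in 3D and 0.117 TPM in 2D (limma adjusted p = 0.0739 in the same fit), and WNT10A, another ligand, averaged 0.25 TPM in 3D and 0.607 TPM in 2D (limma adjusted p = 0.281). WNT2B, FZD7, PYGO1, TNFRSF19, ZCCHC12 and CCN4 of the wider list were also higher in 3D without overlap. None of these passed in the same fit, with limma adjusted p from 0.0601 (CCN4) to 0.415 (FZD7). The share of all genes below the level for testing that did not overlap was not computed. The depth behind such low values is unknown.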
